A study of Rattus norvegicus with 7 samples.

Results

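The receptor tyrosine kinase gene Kit and the gene of its ligand, Kitlg, were followed through single-nucleus RNA libraries of rat kidney. Members were taken by gene symbol from the deposited feature tables, where each symbol belongs to 1 gene (Kit is ENSRNOG00000002227, Kitlg is ENSRNOG00000005386), 2 of 25399 genes in all. The kidneys came from 4-week-old HSRA rats, a line studied for nephron deficit. The titles give 1 kidney for 3 animals (the 1-kidney libraries) and 2 kidneys for 4 animals (the 2-kidney libraries), and the protocols count 3 HSRA-S and 4 HSRA-C animals. Both groups are from the HSRA line, no drug or transgene is named, and each library was taken as 1 animal. Nuclei were isolated from archived tissue, from a central piece holding cortex and medulla in proportions that no label states, and read with 10x Genomics 3' chemistry.

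Kit is the cell-surface receptor for stem cell factor, which Kitlg encodes as a membrane-bound protein that proteases can shed. Binding brings receptor molecules together and starts PI3-kinase, Ras-MAP kinase, Src-family and STAT signalling, and the pathway is best known for germ cells, melanocytes, mast cells and blood progenitors. In the adult kidney KIT protein is used by pathologists as a mark of intercalated cells and of the tumours thought to arise from them, and Kit was named as a candidate gene at a locus for renal agenesis in rats.

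The stretches just upstream of the transcription starts are shown because the 2 genes differ there in motif letters. Both are RefSeq sequences of build GRCr8, 250 bases, written 5′ to 3′ on the gene's own strand. Kit lies at chr14:32978813-32979062 on the minus strand and Kitlg at chr7:36782410-36782659 on the plus strand. Capitals mark matches to GGGCGG (the GC box) or to TATAAA (the TATA box) on either strand, so a GC box on the opposite strand reads CCGCCC, and neighbouring matches may overlap.
Kit: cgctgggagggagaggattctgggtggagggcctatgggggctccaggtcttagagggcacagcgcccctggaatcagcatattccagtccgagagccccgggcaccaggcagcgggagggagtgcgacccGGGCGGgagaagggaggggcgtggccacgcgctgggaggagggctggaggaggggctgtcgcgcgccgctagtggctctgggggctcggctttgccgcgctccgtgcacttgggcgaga
Kitlg: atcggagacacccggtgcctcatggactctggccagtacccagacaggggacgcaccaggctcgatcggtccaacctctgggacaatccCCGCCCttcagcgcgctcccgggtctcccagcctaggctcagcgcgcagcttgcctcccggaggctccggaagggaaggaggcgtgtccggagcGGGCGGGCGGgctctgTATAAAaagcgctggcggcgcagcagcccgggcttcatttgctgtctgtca

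Both windows were rich in G and C, 70.8% for Kit and 67.2% for Kitlg, against a median of 51.2% over the 33469 promoters of the table. Kitlg held TATAAA once, a motif present in 12.9% of all promoters, and Kit did not. GGGCGG, present in 30.5% of promoters, matched once in Kit and 3 times in Kitlg, where 2 of the matches share bases. TGTTTNC, the core of forkhead sites such as those of Foxi1, and AGATAA, read by Gata factors, had 0 matches in both windows and occurred in 18.3% and 10.3% of all promoters. A match describes letters only, and these data hold no measurement of binding.

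The 7 libraries held 37048 barcodes, of which 31384 were retained, 2263 to 5952 per library with a median of 1440 to 2513 UMIs per nucleus. Of the barcode sequences 166 occurred in more than 1 library. The 2-kidney replicates 3 and 4 carry the code P1117B in their library names and the other 5 libraries P1117. The labels do not explain the code, and values without the 2 P1117B libraries are given beside the results they touch. Clusters were made without Kit and Kitlg and named from marker genes. The 4 unnamed clusters held 19.7% of nuclei and 44.5% of UMIs. Kit had 3425 UMIs and Kitlg 12877 in the retained nuclei, and all levels below are CPM (Kit or Kitlg UMIs per 1000000 UMIs of a class in a library).

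Kit was concentrated in type A intercalated nuclei, the acid-secreting cells of the collecting duct system that carry the basolateral anion exchanger Slc4a1. These 1022 nuclei made up 3.26% of nuclei and 1.82% of UMIs, and held 36.4% of all Kit UMIs. Kit stood at 496 CPM ± 195 (SD, n = 7) in type A nuclei and at 52.5 CPM ± 26.8 (SD, n = 7) in the 744 type B nuclei, which secrete bicarbonate and were named from the exchanger Slc26a4. The level in type A was 9.44 times that in type B and was higher in 7 of 7 libraries, a mean difference of 3.28 ± 0.42 (SD) in log2(CPM + 1). The exact sign-flip permutation test gave a two-sided p of 0.0156, the smallest that 7 pairs allow, and 0.156 after Benjamini-Hochberg adjustment over 10 neighbouring pairs of classes.

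Below type B the order of mean Kit levels was endothelium (33.2 CPM), fibroblast (29.6), connecting tubule (15.3), myeloid cell (11.7), thick ascending limb (11.0), principal cell (10.7), distal convoluted tubule (7.95), proximal tubule (5.17) and podocyte (3.69). None of these neighbouring pairs was apart beyond its spread over the 7 libraries, with adjusted p between 0.391 and 0.969 in the exact sign-flip permutation test. The level of type B was likewise not apart from that of endothelium (p = 0.0938, adjusted 0.391, exact sign-flip permutation test). Pooled Kit levels of the classes not ranked were 38.8 CPM in urothelium (15 UMIs) and 28.3 in mural cells (10 UMIs). They were 23.0 CPM in thin limb (18 UMIs) and 17.5 in cycling nuclei (77 UMIs). In the thick ascending limb, the cluster led by Pappa2 and Ptgs2, genes of the macula densa, had 0.311 Kit UMIs per 10000, and the other 2 clusters had 0.106 and 0.0713, each pooled over libraries.

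**Figure D1:**
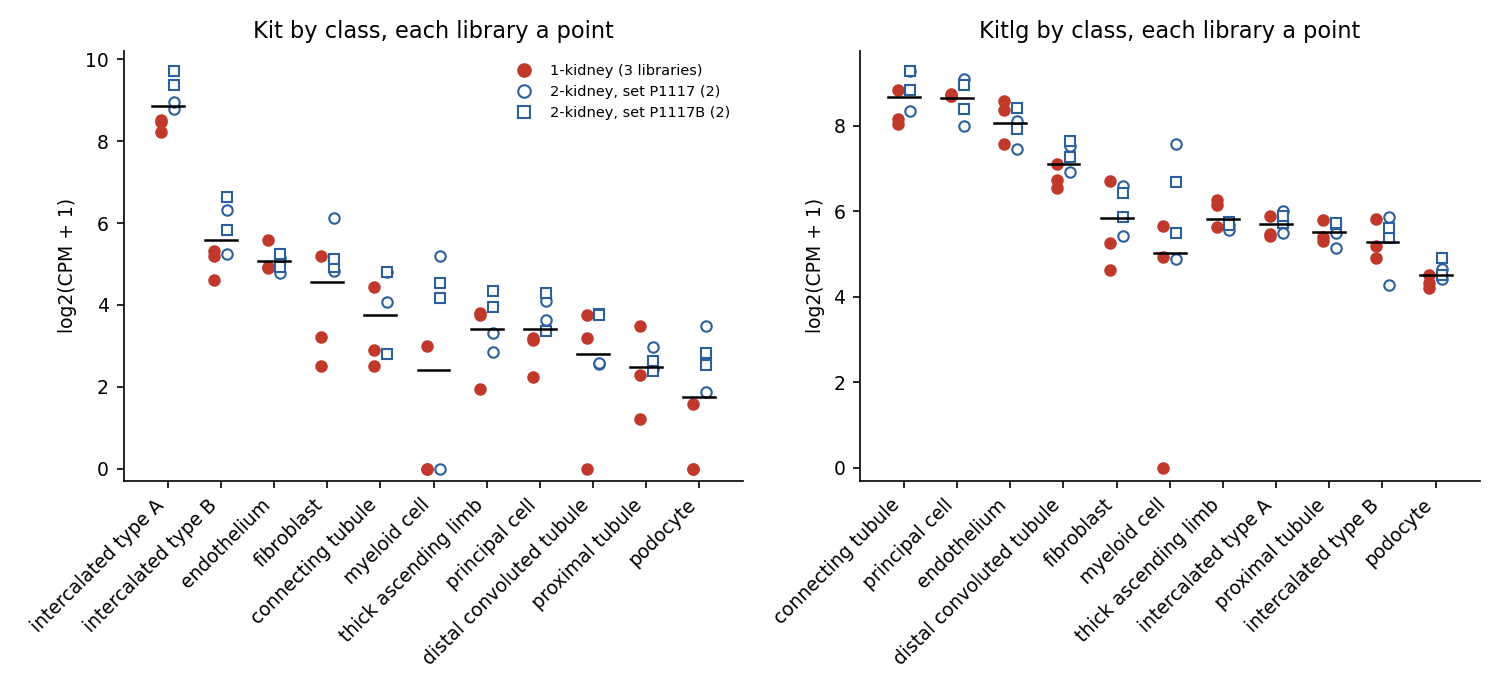
Levels of Kit (left) and Kitlg (right) by class, as log2(CPM + 1) on the vertical axis, with 1 point per library and a bar at the mean of the 7 libraries. Kit is highest in type A intercalated nuclei in every library, and Kitlg has its highest means in connecting tubule, principal cells and endothelium.

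A Kit UMI was seen in 554 of 1022 type A nuclei (54.2%), of which 256 had 1 UMI, 144 had 2 and 154 had 3 or more, up to 19 in 1 nucleus. In proximal tubule and podocyte nuclei, the classes with the lowest Kit levels, the share was 1.95% and 1.44%, at median depths of 3304 and 2558 UMIs against 1494 in type A. With each nucleus thinned to 1000 UMIs and shallower nuclei left out, the mean share over 7 libraries was 40.0% in type A, 4.69% in type B, 3.55% in endothelium and 2.29% in fibroblasts. The thinned share lay between 0.474% and 1.25% in podocytes, proximal tubule, distal convoluted tubule, myeloid cells, thick ascending limb, principal cells and connecting tubule. Of the type A nuclei with a Kit UMI 8.12% also had a Kitlg UMI, against 11.3% of those without, although the nuclei with Kit were deeper (median 1778 against 1232 UMIs).

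Defining markers of the cells best known for Kit outside the kidney were at or near 0 in the type A class. Of 8 mast cell markers 5 were at 0 in type A nuclei of all libraries, and the summed level of the list was 0 to 9.01 CPM in 1-kidney and 0 to 2.61 CPM in 2-kidney libraries. Of 4 melanocyte markers measured 2 were at 0, with sums of 0 to 7.66 and 0 to 2.61 CPM. The 5 type A markers Slc4a1, Slc26a7, Aqp6, Adgrf5 and Dmrt2 summed to between 9417 and 19118 CPM per library in these nuclei.

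Kitlg had a different distribution, with its highest class means in the nuclei that line the segments where intercalated cells lie. It stood at 432 CPM ± 150 (SD, n = 7) in connecting tubule, at 411 ± 96.4 in principal cells, the salt- and water-reabsorbing cells of the collecting duct, at 276 ± 78.5 in endothelium and at 141 ± 39.2 in distal convoluted tubule. Connecting tubule and principal cells were not apart (log2 difference 0.03 ± 0.46 SD, p = 0.875, exact sign-flip permutation test). Principal cells were above endothelium by 0.59, endothelium above distal convoluted tubule by 0.96 and distal convoluted tubule above fibroblasts by 1.26 on the log2 scale, each in 7 of 7 libraries. Each of these pairs had p = 0.0156 in the exact sign-flip permutation test, the smallest possible, and 0.0521 after adjustment over 10 pairs.

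The lower Kitlg levels were 63.4 CPM in fibroblasts, 63.2 in myeloid cells, 56.2 in thick ascending limb, 51.8 in type A intercalated nuclei, 45.1 in proximal tubule, 40.5 in type B and 21.97 in podocytes. Neighbours in this stretch were not apart after adjustment, type B against podocyte coming nearest (0.78 on the log2 scale, 6 of 7 libraries, p = 0.0313, adjusted 0.0781, exact sign-flip permutation test). The 157 urothelial nuclei, too few in some libraries to be ranked, had 70 Kitlg UMIs, or 181 CPM pooled with an exact Poisson interval of 141 to 229 that covers counting error only. Thin limb, mural and cycling nuclei, also not ranked, had 57.4, 65.2 and 84.4 CPM pooled, from 45, 23 and 372 Kitlg UMIs. After thinning to 1000 UMIs, a Kitlg UMI was found in 32.1% of connecting tubule, 27.9% of principal cell, 19.95% of endothelial and 12.6% of distal convoluted tubule nuclei, and in 2.92% to 5.999% of the other ranked classes. The share in podocytes, which had the lowest mean level of Kitlg, was 2.96%. The proximal tubule markers summed to 51.4 UMIs per 10000 in podocytes, 218 in type A nuclei and 239 in endothelium, so the podocyte share need not be the background of the other classes.

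The 2 genes were high in different nuclei of the collecting system: type A nuclei held 36.4% of Kit UMIs and 0.940% of Kitlg UMIs, and connecting tubule with principal cells held 9.68% and 14.2% of Kitlg UMIs and 1.28% and 1.52% of Kit UMIs. The unnamed clusters held 38.3% of Kit UMIs, at 6.37 to 18.1 CPM in 1-kidney and 18.1 to 32.1 CPM in 2-kidney libraries, and these were not assigned to a cell type. The largest unnamed cluster (3026 nuclei) held 40.3% of all UMIs, at a median of 9524 UMIs per nucleus. The proximal tubule transporter gene Slc34a1 was among its leading genes, but no marker list passed. Its doublet score, 0.0916, was the highest of all clusters, and the part of doublets in it was not tested. Its pooled Kit level was above that of each named proximal tubule cluster. The named proximal tubule class, the most abundant with 24.2% of nuclei, held 4.55% of Kit and 10.8% of Kitlg UMIs, with this unnamed cluster not counted.

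Within the endothelium Kitlg varied by sub-cluster. The 2997 endothelial nuclei were clustered again without Kit and Kitlg, a step chosen after the data were seen, so the sub-clusters are described and not tested. Kitlg was highest in sub-cluster 2 (715 nuclei, led by Mmp17, Cd38, Slc29a1, Ripor2 and Efnb2, the last a mark of arterial endothelium), at 666 CPM ± 154 (SD, n = 7). Sub-cluster 7 (115 nuclei, led by Tulp2, Tmeff2 and Tbx3) followed at 568 ± 260 and had the highest level of Ehd3, a gene of glomerular endothelium, at 11.6 UMIs per 10000. Sub-cluster 6 (179 nuclei, led by Vwf and the urea transporter Slc14a1) had 502 ± 378, with libraries from 116 to 1158 CPM. The means of sub-clusters 2, 7 and 6 lay above the class means of connecting tubule (432 CPM) and principal cells (411 CPM).

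Among sub-clusters with at least 5 nuclei in every library the lowest levels were 41.3 ± 34.1 CPM in sub-cluster 4 (371 nuclei, led by Gas7, Ccdc175 and Svep1) and 72.0 ± 52.4 in sub-cluster 5 (191 nuclei, led by Cpvl). The lowest library of sub-cluster 2 (452 CPM) thus lay above the highest of sub-cluster 4 (98.2 CPM). Both sub-clusters were picked by these same values, and sub-cluster 4 held 24 Kitlg UMIs in all, with 7 nuclei in its smallest library. Sub-cluster 1, the largest with 966 nuclei, stood at 268 ± 74.0. It was led by Akap12, Slc26a4, Magi2 and Rpl37a, held 129.8 Slc34a1 UMIs per 10000 and had a median of 752.5 UMIs per nucleus. Sub-cluster 3 (393 nuclei) had 97.5 ± 40.2 and was led by LOC100134871, the globin gene Hba-a1 and Plcz1, with the proximal tubule transporter Slc34a1 also among its leading genes. It held 358.5 Slc34a1 UMIs per 10000 at a median of 3615 UMIs per nucleus. The part of proximal tubule RNA in its Kitlg level was not tested. Sub-clusters 8 (48 nuclei) and 9 (19 nuclei, 1 Kitlg UMI) had fewer than 5 nuclei in some libraries and are not ranked.

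**Figure D2:**
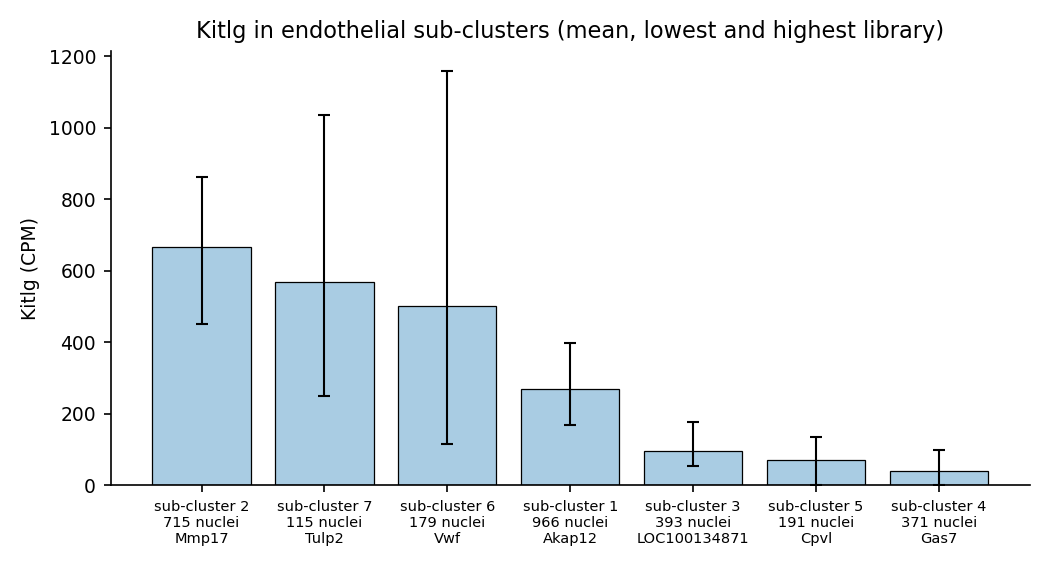
Kitlg in endothelial sub-clusters with at least 5 nuclei in every library, in CPM, with the number of nuclei and the leading gene below each bar. Bars give the mean of the 7 libraries and lines the lowest and highest library; sub-clusters 2, 7 and 6 have the highest means and sub-cluster 4 the lowest.

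Genes whose pattern over the 12 classes was most like that of Kit were Slc4a1, the anion exchanger of type A cells (Pearson r = 0.92), the intracellular aquaporin Aqp6 (r = 0.90), AABR07007715.1 (r = 0.89), the transcription factor Dmrt2 (r = 0.89) and LOC100910650 (r = 0.88). For Kitlg they were the caveolin gene Cav1 (r = 0.91), the endothelial junction gene Heg1 (r = 0.90), Vav3, the receptor gene Gprc5b and Arhgef3 (each r = 0.88). These r values were ranked over 9729 genes, on log2(mean CPM + 1), and describe classes that share libraries and depth. Slc4a1, Aqp6 and Dmrt2 were among the markers that named the type A class, so their likeness to Kit is not independent of it. Slc4a1 averaged 9544 CPM in type A nuclei and 244 CPM in the next class, cycling nuclei. Of the 3 nearest genes on each side of Kit and Kitlg in GRCr8, 1 was matched in the files, the VEGF receptor gene Kdr beside Kit.

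Between the groups Kit was lower in the 1-kidney libraries when all retained nuclei were summed. The 1-kidney libraries had 15.05, 18.0 and 20.6 CPM and the 2-kidney libraries 25.4, 27.1, 34.3 and 35.8 CPM, replicates in order. The groups did not overlap, and the lowest values were those of the 1-kidney libraries. The log2 fold change, 1-kidney over 2-kidney, was −0.75 ± 0.19 (SE), with an adjusted p of 0.172 by edgeR's quasi-likelihood test. Kit therefore did not pass the threshold of 0.05. As background, 10.7% of the 14951 genes tested had 1-kidney libraries all below the 2-kidney libraries, and 0% passed the threshold in edgeR, while 3076 had an unadjusted p under 0.05. DESeq2, which called 469 genes on the same sums, gave Kit −0.75 with an adjusted p of 0.0218. Without the P1117B libraries the fold change was −0.51 ± 0.17 (SE), adjusted p 0.363 by edgeR. Kdr, its neighbour on the chromosome, was at 0.08 ± 0.20 (SE) in the same fit.

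A sum over nuclei cannot tell fewer nuclei of a type from less RNA per nucleus, so the class mix was held fixed. The mix covered the 12 named classes, cycling nuclei included, with at least 20 nuclei in every library. The unnamed nuclei, which held 44.5% of UMIs, 38.3% of Kit UMIs and 38.5% of Kitlg UMIs, were left out. At the mean class mix of the 7 libraries, the level of Kit was 21.7, 27.0 and 29.0 CPM in 1-kidney and 30.3, 38.3, 52.7 and 43.4 CPM in 2-kidney libraries. The groups did not overlap, though the share of all genes for which that holds at a fixed mix was not computed. The log2 difference was −0.65, with p = 0.0571 in the exact permutation test over 35 splits, whose smallest possible p is 0.0286. Without the P1117B libraries that difference was −0.40 (p = 0.2, exact permutation test). Expressed as UMIs per nucleus the difference was −0.998 with p = 0.0286 in the exact permutation test, but nuclei of the 1-kidney libraries were also shallower. Without the P1117B libraries the value per nucleus was −0.73 (p = 0.1 in the exact permutation test, the smallest for 3 against 2). Kitlg at the fixed mix was 99.98, 129 and 141 CPM against 90.6, 150, 124 and 155 CPM, overlapping groups with a difference of −0.06 (p = 0.8286, exact permutation test).

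In intercalated nuclei, where Kit is highest, the 1-kidney libraries had 186, 178 and 204 CPM and the 2-kidney libraries 287, 333, 490 and 441 CPM. The groups did not overlap, the highest 2-kidney values being those of the P1117B libraries. The log2 fold change was −1.002 ± 0.22 (SE), rank 9 among 7344 genes in order of their unadjusted p, with an adjusted p of 0.150 by edgeR's quasi-likelihood test. In this class 6.71% of genes had non-overlapping groups with the 1-kidney libraries lower, and 0% passed the threshold in edgeR, with 1039 at an unadjusted p under 0.05. DESeq2 called 16 genes, Kit among them (adjusted p 0.0181), and edgeR without a filter on low counts, which called 132, gave Kit −1.08 with an adjusted p of 0.00174. Leaving out 2-kidney replicate 1 gave an edgeR adjusted p of 0.0248, and leaving out the P1117B libraries gave −0.70 and 0.288. The class merges type A and type B nuclei, and type A made up 52.3% of it in 1-kidney and 61.6% in 2-kidney libraries (p = 0.0857, exact permutation test). The part of that mix in the fold change of the merged class was not tested.

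Type A nuclei alone had Kit at 297, 356 and 368 CPM in 1-kidney and at 441, 498.5, 844 and 665 CPM in 2-kidney libraries. The groups did not overlap here either, as was so for 6.71% of the 5680 genes tested in that direction, and 0.123% passed the threshold. The fold change was −0.80 ± 0.25 (SE), with an adjusted p of 0.217 by edgeR. It was −0.44 without the P1117B libraries (edgeR adjusted p 0.734) and −0.43 with the class taken from marker scores per nucleus (edgeR adjusted p 0.785). Kit in type A nuclei passed the threshold under none of the settings run, DESeq2 included, the lowest adjusted p being 0.0679 by edgeR without 2-kidney replicate 1.

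The share of type A nuclei with a Kit UMI, after thinning to 1000 UMIs, was 29.1%, 35.1% and 32.4% in 1-kidney and 39.4%, 39.4%, 56.5% and 47.8% in 2-kidney libraries. The means of 32.2% ± 3.00 (SD, n = 3) and 45.8% ± 8.19 (SD, n = 4) gave p = 0.0857 in the exact permutation test, 0.343 adjusted over the 4 class shares tested. Thinning left out 127 of 351 1-kidney and 110 of 671 2-kidney type A nuclei. Without thinning the means were 39.2% and 60.2%. Thinned to 500 UMIs, with 0 nuclei left out, they were 19.8% and 27.6%, and the groups overlapped (p = 0.2, exact permutation test). Without the P1117B libraries the difference at 1000 UMIs was −7.17 percentage points (p = 0.2, exact permutation test), against −13.6 with them.

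**Figure D3:**
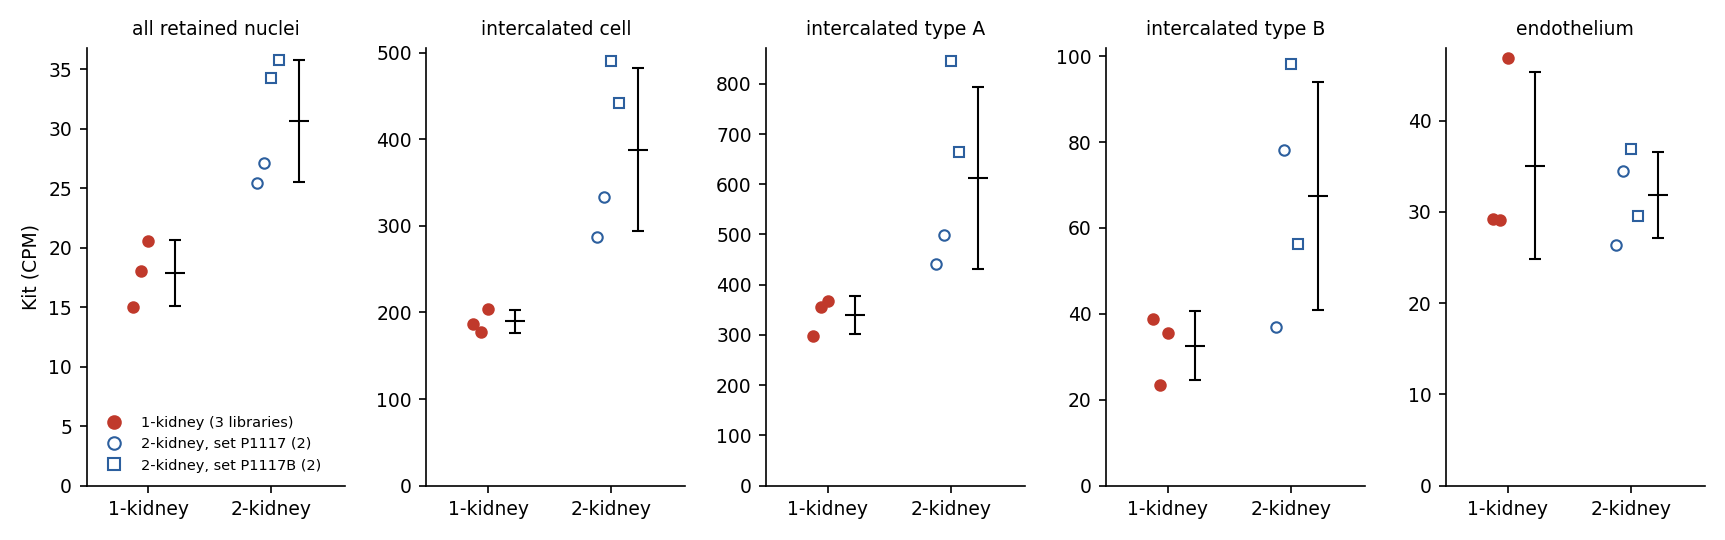
Kit in CPM in each library, for all retained nuclei and 4 classes, each panel with its own linear axis from 0. Points are libraries and the bars beside them give mean ± SD; the groups do not overlap in all nuclei, intercalated cells and type A, and overlap in type B and endothelium.

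Several other measures moved with the Kit values in type A nuclei, and their part in the result was not tested. The median depth of type A nuclei was 898 to 1281 UMIs in 1-kidney and 1523 to 1953 in 2-kidney libraries (p = 0.0286, exact permutation test). The 13 proximal tubule markers, none at 0, summed to 24892 to 39081 CPM in type A nuclei of 1-kidney libraries and to 13201 to 27418 CPM in those of 2-kidney libraries. That sum was also higher in 1-kidney libraries of other classes, so the shift was not particular to type A nuclei. In endothelium it was 29469 to 45251 against 12940 to 25236 CPM, and in principal cells 17693 to 26339 against 3987 to 16260 CPM. Median endothelial depth also differed, at 922 to 1029 against 1091.5 to 1294.5 UMIs (p = 0.0286, exact permutation test). The 3 markers of type B and non-A intercalated cells, Slc4a9 among them, summed to 616 to 919 CPM and 963 to 1639 CPM, without overlap. Slc4a9 was also among the leading genes of the type A cluster itself, so this sum does not measure type B nuclei alone. The share of type A nuclei among all nuclei was 3.28% ± 0.67 (SD, n = 3) and 3.31% ± 0.23 (SD, n = 4) (p = 0.971, exact permutation test), while type B nuclei made up 2.96% and 2.08% (p = 0.0286, exact permutation test).

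The 5 type A markers did not all stand where Kit stood. In type A nuclei Slc4a1 was at 0.12 ± 0.31 (SE), Aqp6 at 0.11 ± 0.26, Dmrt2 at −0.18 ± 0.27, Slc26a7 at −0.52 ± 0.42 and Adgrf5, an adhesion receptor, at −0.60 ± 0.24, all log2 fold changes by edgeR. None passed the threshold, the lowest adjusted p being 0.304 for Adgrf5. Among the broader intercalated markers the proton pump subunit Atp6v1g3 was at −1.13 ± 0.29 (SE, edgeR adjusted p 0.188) and the transporter Slc4a9 at −0.73 ± 0.26 (SE, edgeR adjusted p 0.257), and Atp6v1b1 at 0.05 ± 0.28.

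Outside type A nuclei the values of Kit were lower and less certain. In type B they were 38.7, 23.5 and 35.6 CPM against 37.0, 78.2, 98.2 and 56.2 CPM, from 96 UMIs in all. The groups overlapped, with a fold change of −1.11 ± 0.42 (SE, edgeR adjusted p 0.225). The effects in type A and type B differed by 0.30 ± 0.38 (SE, edgeR interaction, adjusted p 0.962), where edgeR called 0% of genes.

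In endothelium Kit was 29.2, 29.1 and 46.9 CPM against 26.4, 34.5, 36.8 and 29.5 CPM, overlapping groups with a fold change of 0.19 ± 0.28 (SE, edgeR adjusted p 0.789). The effect in intercalated nuclei minus that in endothelium was −1.19 ± 0.28 (SE) in the edgeR interaction fit with the library as a block. This difference ranked 4 among 8784 genes in order of unadjusted p and had an adjusted p of 0.317, so it did not pass the threshold, where 1 gene (0.0114%) did. In fibroblasts Kit ran from 4.65 to 35.7 CPM in 1-kidney and from 27.4 to 68.2 CPM in 2-kidney libraries, on 73 UMIs, with a fold change of −1.72 ± 0.62 (SE, edgeR adjusted p 0.134). Here 2.78% of 6449 genes passed the threshold, and leaving out single libraries moved the Kit value between −2.34 and −1.33, with Kit too low for the test without 2-kidney replicate 4 or without the P1117B libraries. With predicted doublets kept it was −1.23 (edgeR adjusted p 0.335), and with the class taken from marker scores −0.96 (edgeR adjusted p 0.447).

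Markers moved with Kit in the fibroblast class, and their part in the result was not tested. The 5 fibroblast markers measured, 1 of them at 0, summed to 415 to 558 CPM in 1-kidney and 845 to 1051 CPM in 2-kidney libraries. The 8 markers of mural cells, the contractile cells of vessel walls, summed to 384 to 674 and 797 to 1076 CPM. The 13 proximal tubule markers summed to 25876 to 35143 and 11042 to 20677 CPM, so that the groups did not overlap in any of these 3 lists. The share of all genes without overlap was not computed for this class.

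In proximal tubule, on 156 UMIs, Kit was at 0.04 ± 0.47 (SE). In the remaining 5 of 9 classes (connecting tubule, distal convoluted tubule, podocyte, principal cell and thick ascending limb) its counts were too low for the test. In principal cells the values were 7.81, 3.68 and 8.18 CPM against 16.0, 11.3, 18.4 and 9.27 CPM, and in podocytes 2 of 3 1-kidney libraries had 0 UMIs. Kit passed the threshold in 0 of the 4 classes where edgeR tested it, with 2 (intercalated nuclei and fibroblasts) at an unadjusted p under 0.05, and DESeq2 called it in intercalated nuclei. Such a p was held by 14.1% of all genes tested in intercalated nuclei, and the share in fibroblasts is not reported here. Over all genes tested, edgeR called 0.238% in type B nuclei, 0.0695% in endothelium and 0% in proximal tubule.

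In the summed nuclei Kitlg did not differ between the groups beyond the spread of the libraries, 82.4, 94.2 and 114 CPM against 78.3, 118, 98.4 and 115 CPM, with a fold change of −0.06 ± 0.19 (SE, edgeR adjusted p 0.867). In connecting tubule it was 283, 262 and 453 CPM in 1-kidney and 326, 624, 454 and 619 CPM in 2-kidney libraries. The groups overlapped through 1-kidney replicate 3 and 2-kidney replicate 1, and the fold change was −0.59 ± 0.24 (SE, edgeR adjusted p 0.251). The 5 connecting tubule markers, 2 of them at 0, summed to 21690 to 26763 CPM in 1-kidney and 27882 to 40692 CPM in 2-kidney libraries of this class, and the 13 proximal tubule markers to 19723 to 21925 and 9665 to 15905 CPM. Neither sum overlapped between the groups, and their part in the result was not tested. The share of all genes without overlap was not computed for connecting tubule. As background, 0.199% of 6519 genes passed the threshold there. In distal convoluted tubule it was 105, 137 and 92.6 CPM against 119, 182, 153 and 198 CPM, again overlapping, with −0.55 ± 0.22 (SE, edgeR adjusted p 0.237). With the class taken from marker scores it was −0.13 (edgeR adjusted p 0.821). In that segment the 5 distal convoluted tubule markers, 1 of them at 0, summed to 13868 to 14831 CPM against 14978 to 17101, and the 13 proximal tubule markers to 18935 to 20642 against 7727 to 18283. Neither sum overlapped, and their part in the result was not tested. For this segment, too, the share of all genes without overlap was not computed.

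**Figure D4:**
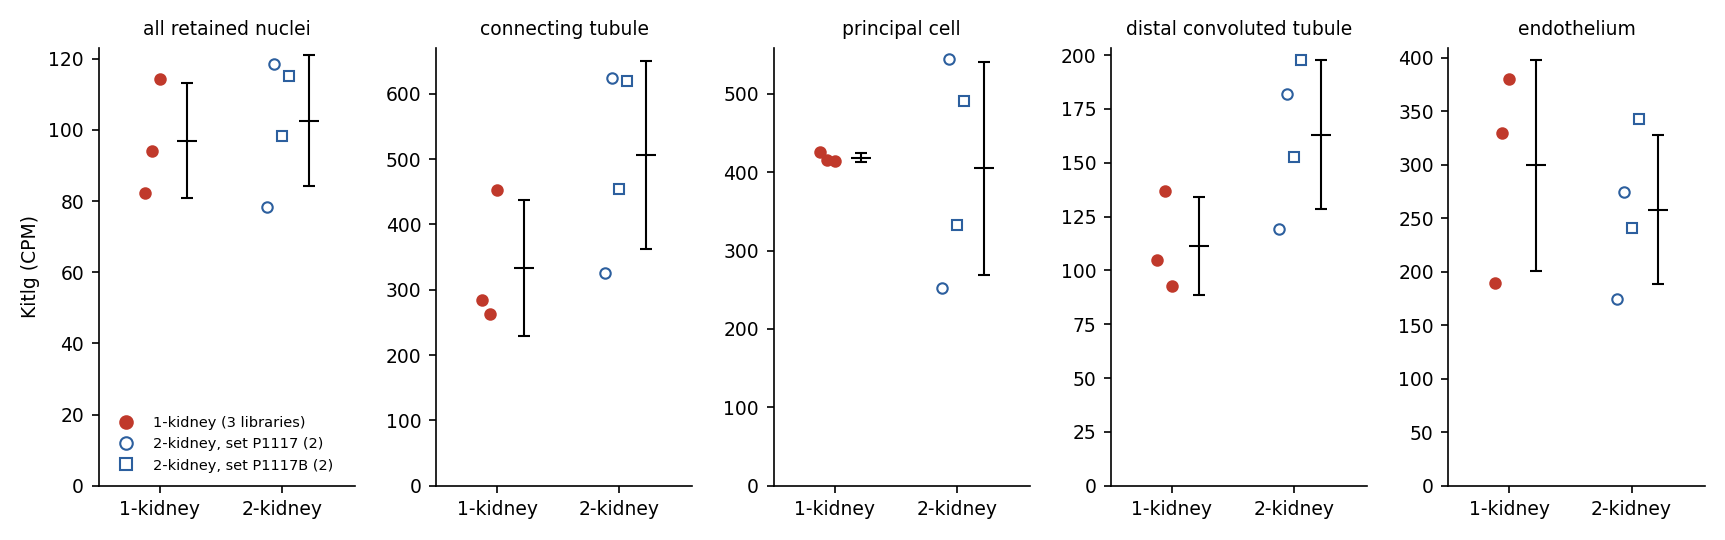
Kitlg in CPM in each library, for all retained nuclei and 4 classes, each panel with its own linear axis from 0. Points are libraries and the bars beside them give mean ± SD; the groups overlap in every panel, and the 1-kidney means are lower in connecting and distal convoluted tubule.

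In principal cells Kitlg was 425, 416 and 415 CPM against 252, 544, 333 and 491 CPM, so that the 3 1-kidney libraries lay close together inside the range of the others (0.01 ± 0.26 SE). The effect in connecting tubule minus that in principal cells was −0.58 ± 0.21 (SE, edgeR interaction, adjusted p 0.565). The fold change was 0.42 ± 0.22 (SE, edgeR adjusted p 0.382) in thick ascending limb and 0.27 ± 0.24 (edgeR adjusted p 0.626) in endothelium, and between −0.24 and 0.04 in the other 4 classes. The endothelial value ran from 0.084 to 0.474 with single libraries left out, and was 0.496 without the P1117B libraries and 0.503 with the library set as a term. Kitlg passed the threshold in 0 of 9 classes by edgeR, with 2 at an unadjusted p under 0.05, connecting and distal convoluted tubule. In these 2 fits 1030 of 6519 and 1211 of 7476 genes had such a p. Over all genes tested edgeR called 0.0669% in distal convoluted tubule, 0% in principal cells, 0.072% in thick ascending limb and 0.0488% in podocytes, and 0% in the interaction of connecting tubule and principal cells. DESeq2 gave Kitlg adjusted p values of 0.195 in connecting tubule and 0.220 in distal convoluted tubule.

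The share of connecting tubule nuclei among all nuclei was 4.45% ± 0.90 (SD, n = 3) in 1-kidney and 2.76% ± 0.33 (SD, n = 4) in 2-kidney libraries (p = 0.0286, exact permutation test), and the mean of their library medians was 1674 and 2481 UMIs per nucleus. The part of this in the Kitlg values was not tested. After thinning to 1000 UMIs a Kitlg UMI was found in 27.9% of connecting tubule nuclei in 1-kidney and 35.3% in 2-kidney libraries (p = 0.229, exact permutation test), in 27.1% and 28.5% of principal cell nuclei and in 20.4% and 19.6% of endothelial nuclei.

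**Figure D5:**
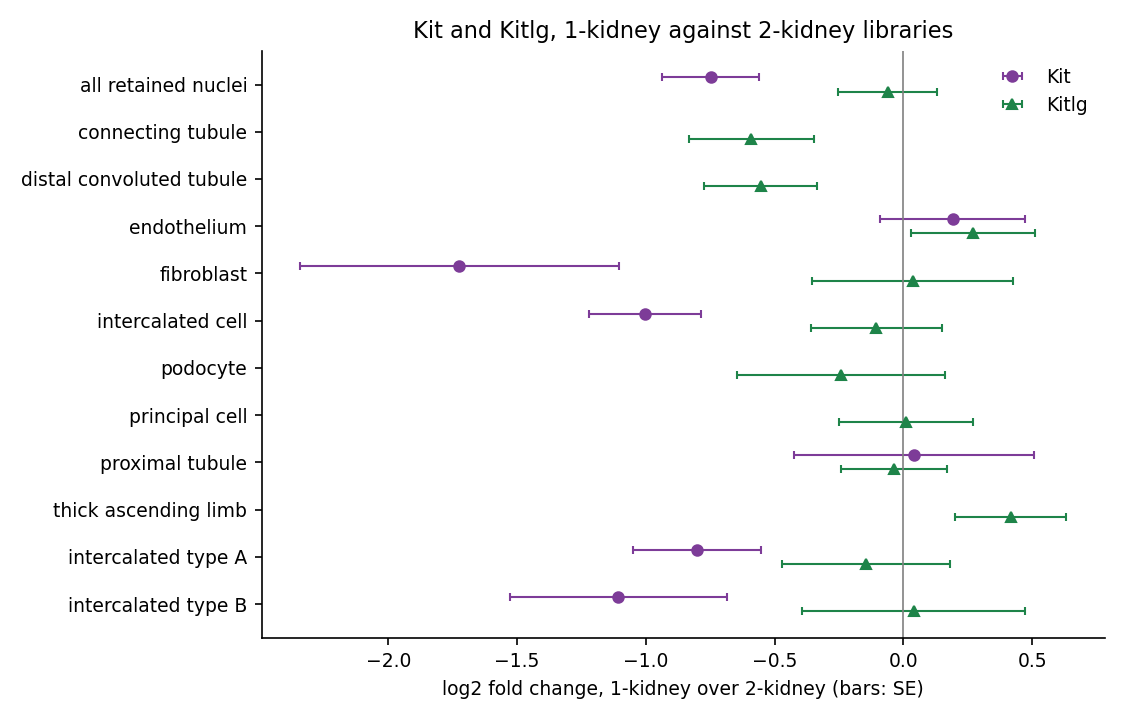
Log2 fold changes of Kit and Kitlg, 1-kidney over 2-kidney, by class, with bars of 1 SE from edgeR; classes where Kit was too low to be tested have no Kit point. Kit lies below 0 in all nuclei, fibroblasts and the intercalated classes and near 0 in endothelium and proximal tubule, and Kitlg lies between −0.59 and 0.42 in every class.

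The genes of the pathway were taken by role from lists drawn up with earlier results of these data known. Of 11 genes of related receptors and ligands, 11 were tested in all retained nuclei, 3 above 0 and 8 below, median −0.28 against −0.01 over all genes, and 0 passed the threshold. The receptor gene Flt3 was at 1.05 ± 0.29 (SE, adjusted p 0.172), Pdgfc, a platelet-derived growth factor, at −0.87 ± 0.30 (adjusted p 0.197) and its receptor Pdgfra at −0.42 ± 0.22 (adjusted p 0.289), all by edgeR. In type A nuclei 4 of them were tested, with Pdgfc at −0.76 ± 0.30 and Pdgfd at −0.81 ± 0.39.

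Among 47 genes that act downstream of Kit, 45 were tested in all nuclei (16 above 0, 29 below, median −0.07) and 31 in type A nuclei (7 above, 24 below, median −0.19 against −0.01 over all genes, of which 49.5% were above 0). None passed the threshold by edgeR in either, and 9 and 7 had an unadjusted p under 0.05, as did 20.6% of all genes tested in all nuclei and 13.3% in type A nuclei. In type A nuclei the kinase gene Map2k2 was at 208 CPM ± 41.6 (SD, n = 3) against 115 ± 24.2 (SD, n = 4), a fold change of 0.90 ± 0.25 (SE, edgeR adjusted p 0.208). The PI3-kinase subunit gene Pik3r1 was at −0.62 ± 0.23 and the transcription factor gene Stat3 at −0.71 ± 0.27 in the same nuclei. In all nuclei the adaptor gene Gab2 was at −0.52 ± 0.15. Below 0 were 25 of 36 in intercalated nuclei, 26 of 38 in principal cells, 26 of 39 in endothelium and 19 of 33 in connecting tubule, and differences between these counts were not tested.

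Genes that restrain the pathway were below 0 in 8 of 14 cases in all nuclei and in 6 of 7 in type A nuclei, and 0 passed the threshold by edgeR. The inhibitor gene Spred1 was at −0.52 ± 0.23 in all nuclei. Of 11 transcription factors tied to Kit, 9 were tested in all nuclei, 6 above 0 and 3 below. Mitf, which activates Kit in melanocytes, was at −0.43 ± 0.18, Lmo2 at −0.74 ± 0.28 and the Kit-signalling partner Etv1 at 0.51 ± 0.27 there, and Mitf was at −0.38 ± 0.24 in type A nuclei. Of the 4 proteases listed for shedding of Kitlg, 2 were tested in all nuclei, Adam17 at −0.09 ± 0.13 and Adam19 at −0.46 ± 0.33. Errors in this paragraph and the one before it are SE of log2 fold changes unless a CPM is named.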

How the data were processed

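Single-nucleus RNA of 7 HSRA rat kidneys was measured. The deposited matrices hold raw UMI counts per gene and barcode, made by the authors with Cell Ranger 7.0, per the submitters' processing notes. No build or annotation is named there. Replicates are separate animals as far as the titles show. Nuclei needed 200 genes or more, with mitochondrial UMIs not above 5%. Doublets were removed by Scrublet rank (0.8% per 1000 barcodes), because automatic calling had marked only 0 to 4 barcodes a library. That rule was chosen after seeing the data. Nuclei were clustered with scanpy 1.11.5 and leidenalg 0.10.2 (2000 variable genes, 30 components, 20 neighbours, resolution 1) without Kit and Kitlg. A cluster was named when at least 3 markers of a list were 2-fold above the other nuclei and 1 was 4-fold. For proximal tubule the comparison was with the median cluster and 3-fold, a rule set after seeing the data. Types A and B were split by cluster.

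Counts were summed per library and class (given 50 or more nuclei in each library) and tested with edgeR 4.0.16 (TMM, filterByExpr, quasi-likelihood, Benjamini-Hochberg over all genes), with DESeq2 1.42.0 as an alternative. Retained libraries held 5581726 to 27069632 UMIs. Single values were compared by exact permutation over 35 splits, two-sided. Intervals cover counting error only. On simulated counts edgeR recovered 64% of 2-fold and 100% of 4-fold changes in all nuclei, and 31% and 88% in type A nuclei. It also called 3 unchanged genes in all nuclei and 11 in type A nuclei. Every gene was simulated at the same dispersion, so these rates need not hold for Kit or Kitlg. Kit and Kitlg were named in every class, with the 3 genes of smallest p per pathway list, the 5 most similar genes and 3 neighbours per side. Some genes that this rule names are not reported here. The members and lists were chosen with earlier results of these data known. Other settings tried were RLE scaling, no filter, each library or set P1117B left out, the set as a term, doublets kept, named classes only, marker-score classes, other thinning depths, equal class weights and a pseudocount of 5. Promoter sequences are RefSeq (GRCr8), and the symbols of Kit and Kitlg both matched.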

Additional observations from a re-analysis of the deposited data

Results flagged for a closer look

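In fibroblasts, Kit in 2-kidney replicate 2 stood at 68.2 CPM, while the other 2-kidney libraries lay between 27.4 and 34.1 CPM. The gap to the nearest library was 0.837 of the group's range, above Dixon's 95% critical value for 4 samples. It is 1 of 26 groups of 2-kidney values examined, and chance marks about 1 group in 20. The explanation was not tested.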

How the results depend on the processing

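Of 368 repeats of 31 results under other settings, 312 kept the direction and the side of the threshold, 8 fell below it, 4 rose above it and 44 turned the direction. The type A minus type B differences were not repeated. No paired analysis was possible because replicate numbers follow accession order. Kit passed the threshold under DESeq2 in all nuclei (−0.75) and in intercalated nuclei (−0.99), and there also without a filter on low counts (−1.08). The 8 were all Kit in UMIs per nucleus at a fixed mix with 1 library or the P1117B libraries (−0.73) left out, where the smallest possible p is 0.0667 or 0.1 and 0.05 cannot be reached. The turned results were Kitlg values or Kit in endothelium and proximal tubule, where the main value was small. Without the P1117B libraries Kitlg was 0.067 at the fixed mix in CPM, 0.0034 in all nuclei and 0.19 in proximal tubule, and Kit was −0.10 in proximal tubule. With the set as a term these were 0.017 for Kitlg in all nuclei, 0.19 for Kitlg and −0.11 for Kit in proximal tubule. Kitlg was 0.013 in named classes only, −0.073 in fibroblasts under DESeq2, −0.046 in principal cells without a filter and −0.0087 in type B nuclei with doublets kept. With classes from marker scores, Kitlg was 0.0073 in podocytes and 0.051 in proximal tubule, and Kit −0.56 in proximal tubule.

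With each library left out in turn, the log2 values ran from −1.11 to −0.80 for Kit in UMIs per nucleus and from −0.22 to 0.089 for Kitlg in CPM at the fixed mix, and from −0.20 to 0.044 for Kitlg in all nuclei. For Kit they ran from −0.086 to 0.35 in endothelium, −1.11 to −0.86 in intercalated nuclei and −0.82 to 0.36 in proximal tubule. For Kitlg they ran from −0.98 to 0.35 in fibroblasts, −0.15 to 0.19 in principal cells, −0.23 to 0.045 in proximal tubule and −0.30 to 0.19 in type B nuclei. The difference in the thinned Kitlg share ran from −3.50 to 1.24 percentage points in principal cells and from −1.19 to 4.57 in endothelium, and connecting tubule over principal cells from −0.036 to 0.15. The number of genes past the threshold ranged over all settings from 0 to 469 in all nuclei (0 in the reported fit), from 0 to 132 in intercalated nuclei (0 reported) and from 0 to 54 in type A nuclei (7 reported). The cause of these changes was not tested. Depth limits Kit in the named classes outside type A nuclei, which hold at most 175 UMIs each. The unnamed nuclei held 1312 Kit UMIs.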
